A study of Mus musculus with 12 samples.

Results

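Rostral and caudal neocortex of C57 mouse embryos at E13.5 (embryonic day) were compared for gene expression, on the 6 arrays that carry this strain in their titles out of 12 arrays in the series. C57 is the inbred strain given in the series' design text as C57Bl\6, and the other 6 arrays hold the outbred strain MF1. For each of 3 C57 pools, tissue of 3 embryos was combined, and rostral and caudal RNA of the same pool competed on a pair of arrays with the dyes Cy3 and Cy5 exchanged. Both strains were unmanipulated, no allele or treatment is named for either, and the pool (6 in the series, 3 in C57) is the replicate. Both hemispheres entered a pool, embryos were matched within litters, and the cDNA was amplified by PCR with the SMART method before labelling, per the series' design text. Nothing in the labels says that the C57 pools came from separate litters, so the p-values reflect only how far these pools differ, which may be partly technical.

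The rostrocaudal axis is the axis along which frontal, motor, sensory and visual areas are later laid out. As background, fibroblast growth factors from the rostral midline and Wnt and bone morphogenetic proteins from the caudomedial hem set up opposing gradients of transcription factors in dividing radial glia. Pax6 and Sp8 are known to be higher rostrally, and Emx2, Nr2f1 and Lhx2 higher caudally. At this stage progenitors are dividing and the first deep-layer neurons are being made.

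Values below are log2 ratios, rostral over caudal RNA, relative to the median of their array, so a value above 0 means more signal rostrally and a value below 0 more signal caudally. The direction is assumed rather than known, because the channel used as numerator is not stated in the labels or design text. Cy5 over Cy3 was taken, which puts the median of known caudal genes at -0.02 (5 above and 5 below 0). That of known rostral genes lay at 0.11 (7 above and 3 below), or at -0.05 with arrays not centred. Known caudal and rostral genes thus give this choice only weak support. These genes are therefore not independent evidence of direction. A C57 array had values for 17998 to 19252 of its 21998 probes, and the depth of an array can be judged here only by how many arrays there are, since no spot intensities were used. The 6 C57 arrays had a spread of log2 ratios (SD from the median absolute deviation) between 0.64 and 0.88, against a mean of 0.49 on the MF1 arrays. The dorsal telencephalon markers Emx1, Emx2, Pax6, Lhx2, Neurog2, Eomes and Tbr1 had a value on all 6 C57 arrays; a ratio does not show how strongly a marker is expressed.

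Values on the C57 arrays differed more by dye than by position in the cortex. Over 13173 features complete on 6 arrays the median size of the dye term was 0.26 and that of the rostral over caudal ratio 0.19. After the arrays were turned, the means of the 3 arrays with rostral RNA in Cy3 and of the 3 with rostral RNA in Cy5 had a Spearman correlation of -0.35 across features, and 39.1% of features had the same sign in both. The array of pool 1 with rostral RNA in Cy5 stood apart: as deposited it correlated with the rostral-in-Cy3 arrays at 0.30 to 0.40, where the other 2 rostral-in-Cy5 arrays did so at 0.13 to 0.23. Across features the pool means had Spearman correlations of 0.0053 (pools 1 and 2), 0.11 (1 and 3) and 0.20 (2 and 3). Averaging both arrays of a pool cancels a dye effect that is equal on both, and genes that keep their sign in both orientations are named first for that reason.

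**Figure D1:**
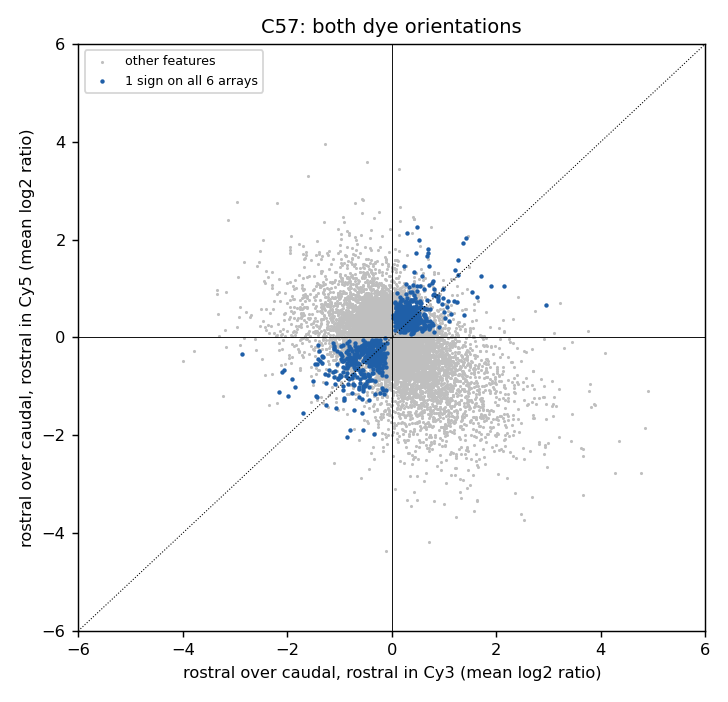
Mean log2 ratio of rostral over caudal RNA per feature on the 3 C57 arrays with rostral RNA in Cy3 (x axis) and on the 3 with rostral RNA in Cy5 (y axis), for 13173 features complete on 6 arrays. Blue points are the 779 features with 1 sign on all 6 arrays, and the grey cloud runs along the falling diagonal, where the 2 orientations disagree.

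With limma on the 3 pool means, 0 of 15999 features (12456 named genes and 3543 probes without a single gene name) passed the adjusted threshold of 0.05, a share of 0%, and the smallest adjusted p was 0.699. Without adjustment, 1073 features had a p under 0.05 (6.71%), 454 higher (2.84%) and 619 lower (3.87%) rostrally. Fitting the 6 pools of both strains with a shared spread gave 0 and 1400, and a fit of all 6 C57 arrays, with pool entered as random block, gave 0 and 1168. Of the 13173 complete features 779 (5.91%) had the same sign on all 6 arrays, 394 higher (2.99%) and 385 lower (2.92%). Without centring, C57 ratios had a median of -0.16, the unadjusted calls split into 198 higher and 1086 lower, and the same-sign features into 80 higher and 647 lower. No gene below is therefore called changed, and each value is given as a description of these 3 pools.

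Among named genes with 1 sign on all 6 arrays, the 12 of smallest p on each side had means from 0.81 to 1.73 above and from -1.64 to -0.82 below 0, which corresponds to 1.76-fold to 3.31-fold and 1.77-fold to 3.11-fold. They were picked by these same values, so their ratios describe them and test nothing. All 24 share the limma adjusted p of 0.699.

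Higher rostrally, secreted modulators of growth factor signals were represented by Fgfbp3 and Sfrp1. Fgfbp3, a secreted protein that binds fibroblast growth factors and releases them from the matrix, had values of 0.97, 0.72 and 0.46 with rostral RNA in Cy3 and of 1.46, 1.36 and 1.56 with rostral RNA in Cy5 in pools 1 to 3. Its 3 pool means lay close together, at 1.22, 1.04 and 1.01, while the Cy5 arrays were higher in every pool. The mean was 1.09 ± 0.11 (SD, n = 3), a 2.13-fold ratio. Sfrp1, a secreted inhibitor of Wnt signalling, gave 0.91 and 0.79 in pool 1, 1.31 and 1.29 in pool 2, and 0.72 and 0.89 in pool 3 for both orientations. The orientations lay close together in each pool here, and pool 2 was the highest. Its mean was 0.98 ± 0.28 (SD, n = 3), and its probes averaged 1.12 and 0.85.

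Regulators of transcription on this side were Zic1 and Pantr1. Zic1, a zinc finger factor of the dorsal and septal telencephalon, had pool means of 0.80, 0.73 and 0.91 (mean 0.81 ± 0.09, SD, n = 3). Pantr1, a noncoding RNA gene next to Pou3f3, had pool means of 0.96, 0.74 and 0.77, with arrays between 0.47 and 1.07. Mpped2, a metallophosphoesterase of fetal brain, reached 1.27 ± 0.23 (SD, n = 3), from pool means of 1.11, 1.54 and 1.17. Its lowest array was at 0.94 and its highest at 1.88, so the orientations overlapped.

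Enzymes and carriers made up most of the rest. Pgm1, which interconverts glucose phosphates, had pool means of 1.60, 1.70 and 0.97, Dct, an enzyme of melanin synthesis, of 1.26, 1.39 and 0.87, and Rlbp1, a carrier of retinaldehyde, of 0.80, 0.76 and 1.06. Slc38a3, a glutamine transporter, averaged 1.21 ± 0.30 (SD, n = 3), but this mean joined 0.30, 0.05 and 0.49 with rostral RNA in Cy3 and 1.71, 3.04 and 1.67 with rostral RNA in Cy5. The 2 orientations of Slc38a3 did not overlap, and the same held for Dct, Rlbp1 and Fgfbp3. Scin, an actin-severing protein, had the highest mean of the 24, 1.73 ± 0.70 (SD, n = 3), over arrays from 0.06 to 4.11. The unannotated transcript 4933424G05Rik (1.64 ± 0.29) and Speer4f1 (1.23 ± 0.38), a member of a family of near-identical testis genes whose copies may share a probe, completed the list.

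Lower rostrally, Nr2f1 stood first. This orphan nuclear receptor, also known as COUP-TFI, promotes caudal area identity. Its arrays gave -1.98 and -1.80 in pool 1, -1.58 and -1.37 in pool 2, and -1.55 and -1.47 in pool 3. All 6 lay within a range narrower than that of most genes named here, with pool 1 the lowest, and both probes were alike at -1.68 and -1.57. The mean was -1.63 ± 0.23 (SD, n = 3), a 3.08-fold ratio. Among receptors and adhesion molecules, Notch2, a Notch receptor of progenitors, had pool means of -0.89, -1.74 and -1.68 (mean -1.43 ± 0.47, SD, n = 3) with pool 1 nearest to 0. Tenm2, a teneurin by which neurons adhere, had pool means of -0.74, -0.87 and -0.85, and its 3 probes were all below 0, at -1.11, -0.92 and -0.44.

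Membrane and vesicle proteins followed. Pag1, an adaptor of membrane microdomains, had pool means of -0.87, -1.68 and -1.41, and its arrays ran from -2.23 to -0.05. Abcg1, a cholesterol exporter, averaged -0.88 ± 0.10 and Cadps, which primes dense-core vesicles for release, -0.92 ± 0.18 (SD, n = 3 each). The arrays of Cadps gave -1.32, -1.999 and -0.91 with rostral RNA in Cy3 and -0.19, -0.23 and -0.88 with rostral RNA in Cy5, so most of its size came from the first orientation. Csnk1g1, a casein kinase, averaged -1.01 ± 0.10, Chpf2, an enzyme of chondroitin sulphate synthesis, -0.84 ± 0.14, and Zfp57, a zinc finger protein that maintains imprints, -1.01 ± 0.30. Rbm20, a splicing regulator, had pool means of -0.94, -0.73 and -0.85, but its probes disagreed: the first gave -0.18, 0.12 and -1.57 and the second -1.70, -1.59 and -0.12 in pools 1 to 3. Its narrow SD of 0.10 therefore holds for the mean of both probes alone. The transcripts 5730409K12Rik (-1.64 ± 0.39) and 4930417O22Rik (-1.10 ± 0.18) have no named product.

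**Figure D2:**
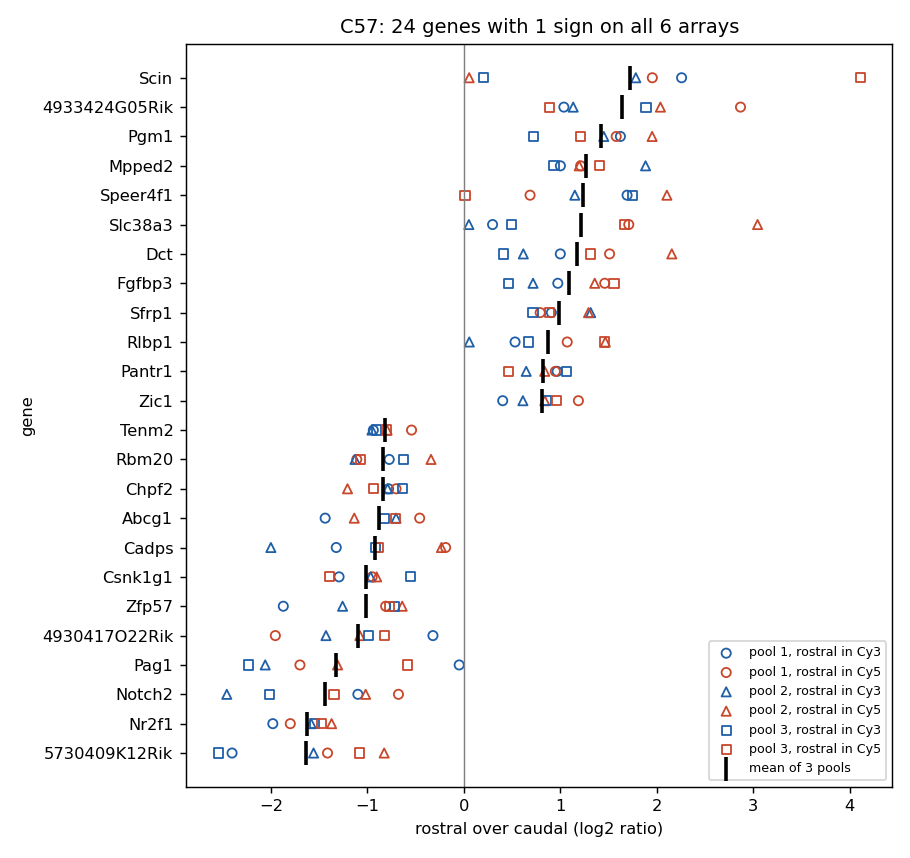
Log2 ratio of rostral over caudal RNA (x axis) of the 12 genes of smallest p per side among those with 1 sign on all 6 C57 arrays (y axis); open symbols are single arrays (circle, triangle and square for pools 1, 2 and 3; blue with rostral RNA in Cy3, red with rostral RNA in Cy5) and black bars the mean of 3 pools. Nr2f1, Sfrp1 and Pantr1 have their 6 arrays close together, whereas those of Scin run from 0.06 to 4.11.

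To show the sequence before the start sites of these genes, the 250 bases upstream of a RefSeq transcript start (build GRCm38.p6, strand of the gene, 5′ to 3′) are given for a signalling gene and a transcription factor on the rostral side and for the receptors Nr2f1 and Notch2 on the caudal side. Capitals mark CCAAT boxes and GC boxes (GGGCGG) on either strand. The windows are chr19:36919600-36919849 (minus strand) for Fgfbp3, chr9:91365769-91366018 (minus strand) for Zic1, chr13:78198874-78199123 (minus strand) for the first listed start of Nr2f1 and chr3:98013288-98013537 (plus strand) for Notch2.
Fgfbp3: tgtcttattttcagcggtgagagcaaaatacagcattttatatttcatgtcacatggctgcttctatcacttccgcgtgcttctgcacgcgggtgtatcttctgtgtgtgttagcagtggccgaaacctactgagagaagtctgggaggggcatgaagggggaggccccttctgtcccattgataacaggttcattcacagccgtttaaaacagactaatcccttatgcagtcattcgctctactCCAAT
Zic1: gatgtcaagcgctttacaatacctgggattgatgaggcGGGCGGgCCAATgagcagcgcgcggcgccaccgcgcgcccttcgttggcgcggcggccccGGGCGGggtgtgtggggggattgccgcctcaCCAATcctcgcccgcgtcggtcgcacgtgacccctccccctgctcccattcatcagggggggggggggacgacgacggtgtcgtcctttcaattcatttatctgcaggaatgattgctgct
Nr2f1: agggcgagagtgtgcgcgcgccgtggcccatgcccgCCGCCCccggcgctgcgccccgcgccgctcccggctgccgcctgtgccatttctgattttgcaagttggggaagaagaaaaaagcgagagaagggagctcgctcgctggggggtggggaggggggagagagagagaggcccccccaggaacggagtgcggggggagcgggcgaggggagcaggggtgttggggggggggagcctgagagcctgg
Notch2: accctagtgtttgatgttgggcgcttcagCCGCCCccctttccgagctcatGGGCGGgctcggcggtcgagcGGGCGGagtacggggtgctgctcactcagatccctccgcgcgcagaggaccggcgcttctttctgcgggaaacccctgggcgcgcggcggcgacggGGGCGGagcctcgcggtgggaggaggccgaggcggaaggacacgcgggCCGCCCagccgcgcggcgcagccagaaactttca
The Fgfbp3 window holds 1 CCAAT box and 0 GC boxes at 47.2% G and C, that of Zic1 holds 2 of each at 66.0%, that of Nr2f1 holds 0 and 1, and that of Notch2 0 and 5, both at 72.0%. Over all 32851 RefSeq windows of this length the median G and C content was 52.4%, 33.8% held a CCAAT box and 32.7% a GC box.

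Of the 24 genes 16 were found in the promoter table by symbol, with 22 start sites in all. A GC box stood in 7 of the 10 windows of the rostrally higher genes and in 4 of the 12 of the rostrally lower genes, and a CCAAT box in 4 and in 5. The nuclear receptor half-site AGGTCA occurred in 0 and 1 windows against 14.0% of all windows, the homeodomain core TAATTA in 0 and 0 against 4.84%, and the ETS core CCGGAA in 1 and 2 against 3952 of all 32851 (both strands searched, no motif overlapping another in these windows). These are matches of letters, and several windows belong to the same gene.

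The genes known for caudal expression split. Of 17 listed, 10 were measured, 5 with a mean above and 5 below 0. The median of their means was -0.02, while the medians within pools were -0.29, -0.10 and -0.10 and those within orientations -0.65 (rostral RNA in Cy3) and -0.23. Beside Nr2f1, the homeobox factor Lhx2, which sets cortical identity in progenitors, had arrays of -0.68 and -0.72, -0.63 and -0.34, and -0.62 and -0.49 in the 3 pools. It was below 0 on 6 of 6 arrays with a mean of -0.58 ± 0.11 (SD, n = 3). Fgfr3, a receptor for fibroblast growth factors, averaged -0.65 ± 0.35, with 1 array of pool 3 not below 0. Epha7, an ephrin receptor, ran from 0.02 in pool 1 to -1.12 in pool 3. Emx2 (-0.22, 0.42 and -0.12) and Emx1 (-0.88, 0.22 and 0.67), homeobox factors of dorsal progenitors, lay on both sides of 0, as did the thyroid hormone binding protein Crym (-0.37, -0.18 and 0.42). Wnt8b, a signal of the hem, had a mean of 0.28 that joined -1.33, -1.55 and -0.74 with rostral RNA in Cy3 to 2.43, 2.25 and 0.59 with rostral RNA in Cy5; its 2 orientations did not overlap and had opposite signs. Tenm3 (0.36 ± 0.42) and Tshz2 (0.15 ± 0.18) had mixed arrays too. In this list 0 members passed the adjusted threshold, 3 (Nr2f1, Lhx2 and Fgfr3) had an unadjusted p under 0.05, all lower rostrally (3.87% of all features), and without pool 1 the median was 0.13.

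Of 15 genes known for rostral expression or induced by fibroblast growth factors, 10 were measured, 7 above and 3 below 0, with a median of 0.11. Etv5, a transcription factor induced by these signals, had pool means of 0.54, 0.59 and 0.56, all 6 arrays between 0.29 and 0.89, and both probes above 0 (0.64 and 0.49). Spry2, a feedback inhibitor, had pool means of 0.58, 0.33 and 0.43, and both arrays of each pool lay close together. Pax6, the paired-box regulator of radial glia, had pool means of 0.66, 0.19 and 0.41 and arrays from 0.02 to 1.07. These 3 had 1 sign on all 6 arrays. The secreted factors were not graded the same way in every pool: Fgf8 gave -0.10, -0.01 and 0.48, Fgf17 gave 0.12, -0.86 and -0.01, and Fgf15 gave -1.21, -1.13 and 0.03. Etv4 (0.05 ± 0.43) and Lmo4 (0.10 ± 1.21) were near 0 with a wide spread. The inhibitors Dusp6 (0.36, n = 2) and Spry4 (-0.76, n = 2) had values in pools 1 and 2 alone, and the arrays of Spry4 ran from -5.25 to 2.73. Unadjusted p was under 0.05 for 2 members (Etv5 and Spry2), both higher (2.84% of all features), 0 passed the adjusted threshold, and with arrays not centred the median was -0.05.

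**Figure D3:**
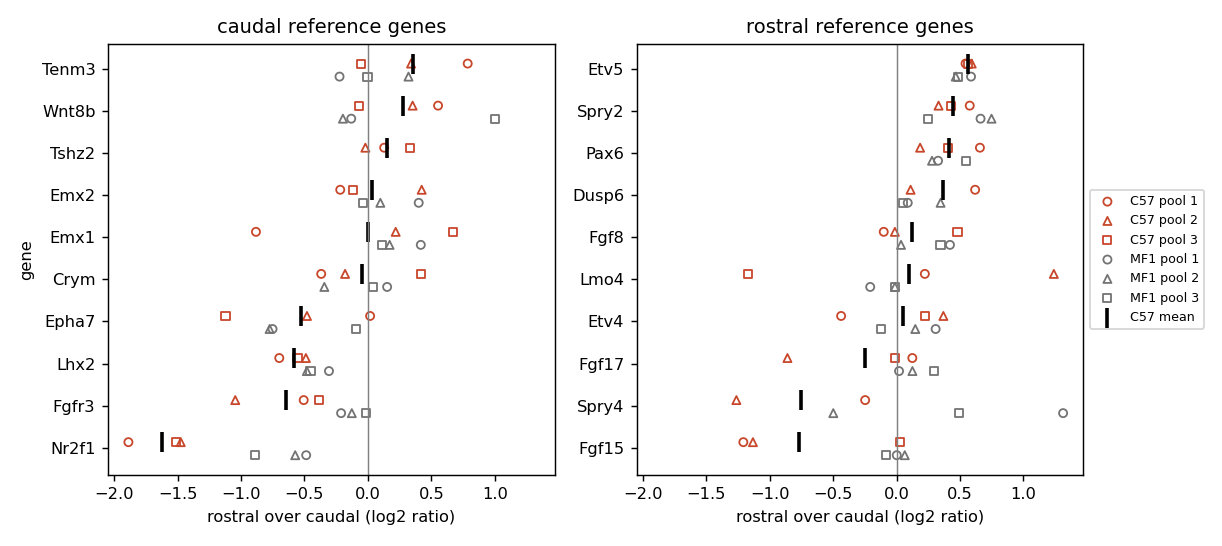
Pool means of the log2 ratio of rostral over caudal RNA (x axis) for genes known for caudal (left) and rostral (right) expression (y axis), with C57 pools in red, MF1 pools in grey and the C57 mean as a black bar. Nr2f1, Lhx2 and Fgfr3 lie below 0 in 3 of 3 C57 pools, and Etv5, Spry2 and Pax6 above 0 in 3 of 3.

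Within the wider signalling pathways, counts of members that kept 1 sign in 3 of 3 pools are set against 16.6% of features above and 16.1% below 0 in 3 of 3 pools. Of the 26 list medians 13 changed sign with arrays not centred, which moved the C57 median over features to -0.16, so sides are relative to the middle of each array. In the FGF list 2 of 12 members with 3 pools were above and 5 below. Of all its 16 means, however, 10 lay above 0, with a median of 0.08. Besides Fgfbp3, the membrane protein Flrt3, a partner of FGF receptors, was lower rostrally at -0.51, -0.75 and -0.57, and Fgf11, an intracellular member of the family, at -0.25, -0.98 and -0.56. Most of their size came from the rostral-in-Cy5 arrays, with means of -1.04 (Flrt3) and -1.08 (Fgf11). Over the rostral-in-Cy3 arrays the means were -0.18 and -0.11. The receptor Fgfr2 averaged -0.56 ± 0.36. The Wnt and cortical hem list had 2 of 33 above and 8 below, with a median of -0.12. There the agonist Rspo3, expressed at the hem, gave -0.23, -1.15 and -0.75, Lmx1a, a hem transcription factor, -0.78 and -2.87 in 2 pools, and Dkk3, a secreted protein of the Dickkopf family, -0.57, -0.31 and -0.52.

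In the BMP and TGF-beta list 5 of 32 were above and 7 below in 3 of 3 pools. Msx2, a homeobox target of BMP, had pool means of 0.79, 0.56 and 0.86. On the other side stood Id3, an inhibitor of basic helix-loop-helix factors induced by BMP (-0.42, -0.91 and -0.55), and Ltbp1, which binds latent TGF-beta (-1.45, -0.35 and -1.63). In the Notch list 6 of 22 were above and 3 below. Notch2 was low rostrally as given above, while the Notch target Hes5 gave 0.52, 1.27 and 0.89 and was above 0 on all 6 arrays. Lfng, a glycosyltransferase that modifies Notch receptors, gave -1.66, -0.13 and -0.48. The list's median was -0.35 with rostral RNA in Cy3 and 0.44 with rostral RNA in Cy5, so its middle depended on the dye.

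Among retinoid genes 2 of 16 were above and 3 below in 3 of 3 pools. Dhrs3, which reduces retinal to retinol, gave -1.08, -0.66 and -1.23 and had 1 sign on all 6 arrays, and Rdh10, which makes retinal, gave -1.39, -0.94 and -0.72. The mean of Rdh10 was 0.07 over the 3 rostral-in-Cy5 arrays, where its sign turned. Crabp1, a retinoic acid binding protein, gave -1.31, -0.90 and 0.12. In the hedgehog list 3 of 10 were above and 0 below, led by Gas1, a co-receptor, at 0.48, 1.01 and 0.82. The hedgehog median was -0.22 with rostral RNA in Cy3 and 0.32 with rostral RNA in Cy5. Of 45 area and guidance molecules 8 of 43 were above and 10 below. The netrin receptor Dcc (1.13, 0.9993 and 0.41) and the ephrin Efnb2 (0.52, 0.39 and 0.55) were higher rostrally on all 6 arrays. The semaphorin receptor Nrp2 had pool means of -0.44, -0.36 and -1.85, but 4 arrays lay below and 2 above 0. Its mean was -1.73 over the rostral-in-Cy3 arrays and -0.04 over the rostral-in-Cy5 arrays. The probes of Dcc averaged 1.23 and 0.47. For each of these 7 pathway lists 0 members passed the adjusted threshold (limma), and an unadjusted p under 0.05 was found for 3 of 16 FGF, 3 of 35 Wnt and hem, 4 of 35 BMP and TGF-beta, 2 of 25 Notch, 3 of 18 retinoid, 1 of 11 hedgehog and 3 of 45 area and guidance genes, against 6.71% of all features.

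Most genes of dividing cells lay above 0. Of 67 measured cell cycle genes 54 were above 0, with a median of 0.16 against -0.0009 over all features, and 27 of 65 were above 0 and 2 below 0 in 3 of 3 pools. The pool medians were 0.17, 0.09 and 0.19. Rrm2, a subunit of ribonucleotide reductase, gave 0.95, 0.54 and 0.47, Tpx2, a spindle protein, 0.50, 0.36 and 0.37, and Pttg1, securin, 0.61, 0.42 and 0.26; each was above 0 on all 6 arrays. By orientation, however, the list's median was -0.04 with rostral RNA in Cy3 and 0.38 with rostral RNA in Cy5, with 33 and 59 of 67 members above 0. It was -0.0017 with arrays not centred. With limma, 0 members passed the adjusted threshold and 1 of 67 had an unadjusted p under 0.05, against 6.71% of all features. In MF1 the list's median was 0.14, with 50 of 67 members above 0. The part of the dye in this shift was not tested.

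Lists of cortical cell types varied more between orientations than between pools. Radial glia genes had a median of 0.09 (7 of 21 above and 3 below in 3 of 3 pools), intermediate progenitor and proneural genes of -0.03 (5 and 2 of 18) and postmitotic neuron genes of 0.05 (9 and 7 of 31). Since the samples are bulk tissue, fewer cells of a type and less RNA per cell cannot be told apart. Cdh2, the cadherin of radial glia, gave 0.31, 0.52 and 0.31, and Tnc, an extracellular matrix protein of these cells, -0.42, -0.48 and -0.53 with both probes below 0. Rnd2, a GTPase of migrating neurons, gave 0.26, 0.34 and 0.43. Of neuronal genes, the transcription factors Cux1 (0.69, 0.63 and 0.44) and Neurod6 (0.58, 0.27 and 0.51) were higher rostrally in 3 of 3 pools, though the probes of Cux1 differed in size at 0.90 and 0.28. Fezf2, the factor of deep-layer projection neurons, gave -0.53, -0.43 and -0.14, and Mapt, the microtubule protein tau, -0.27, -0.64 and -0.24. In these 3 lists 0 members passed the adjusted threshold (limma), and an unadjusted p under 0.05 was found for 2 of 21, 0 of 19 and 2 of 32 members, against 6.71% of all features.

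Markers of the meninges and of the choroid plexus lay more often below than above 0. Of 41 meningeal and mesenchymal genes with 3 pools, 16 (39.0%) were below 0 in 3 of 3 pools and 3 (7.32%) above. The median was -0.11, at -0.17, -0.06 and -0.13 in the pools and -0.13 and -0.09 in the orientations. Of all 47 members 27 had a mean below and 20 above 0. Vtn, vitronectin, gave -1.46, -0.51 and -1.02, Col1a1, the fibrillar collagen, -0.47, -0.75 and -1.45, and the mesenchymal factor Twist2 -0.43, -0.78 and -1.25. Above 0 lay the collagen Col5a1 (0.45 and 1.32 in 2 pools) and Ogn (0.36, 0.21 and 0.69), whose probes disagreed at -0.39 and 1.66. In MF1 the list's median was 0.05, with 28 of 46 members above 0. Without pool 3 the list's median was -0.04. Choroid plexus genes had a median of -0.28, with 0 of 8 above and 3 below 0 in 3 of 3 pools and pool medians of -0.26, -0.33 and -0.11. Its members Rspo3 and Lmx1a are also in the Wnt and hem list, which lies lower rostrally too; the part of hem or choroid plexus tissue in these ratios was not tested. The neighbouring meninges values likewise stand beside those of the retinoid and BMP genes above, and their part was not tested.

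Members of the lists for other cell types lay on both sides of 0. For Cajal-Retzius cells, 8 genes were measured and 4 in all pools, 3 above and 5 below 0, with a median of -0.33 that became 0.0537 over complete features. Reln, their secreted glycoprotein, gave 0.94, 0.60 and 0.09 and Calb2, calretinin, 0.32, 0.28 and 0.25. The transcription factors of this list split. Lhx5 (-0.59 and -0.74) and Ebf2 (-0.54 and -0.44) were below 0 in their 2 measured pools, and Ebf1 (2.10 and 1.54) was above 0 in its 2. The lowest member was Ndnf, with a mean of -2.92 over 2 pools. Ventral telencephalon genes had pool medians of -0.23, 0.44 and 0.09, with 8 of 17 means above and 9 below 0. Their median was 0.22 with rostral RNA in Cy3 and -0.25 with rostral RNA in Cy5, so its side depended on the dye. Dlx5, a homeobox factor of interneurons, gave -0.95, -0.81 and -0.64 and was below 0 on all 6 arrays. On the other side, Zic1 (0.80, 0.73 and 0.91) was above 0 on all 6 arrays, and Ebf1 gave 2.10 and 1.54 in 2 pools. Diencephalon genes had a median of 0.03 and 6 of 10 members above 0. Pool medians were below 0 in 3 of 3 pools for red blood cell (median -0.14, pool 1 at -0.0013) and blood vessel genes (-0.03). They were above 0 in 3 of 3 for microglial genes (0.18, or 0.01 with arrays not centred). By orientation (rostral RNA in Cy3, then Cy5) the medians were -0.35 and 0.16 for vessel and -0.04 and 0.25 for microglial genes. The sides of these 2 lists thus depended on the dye, while red blood cell genes stood at -0.10 and -0.02. Of red blood cell genes, 4 means were above and 8 below 0. Hebp1, a heme binding protein, gave -0.81, -0.50 and -1.30. Its mean was -0.0078 over the rostral-in-Cy3 arrays and -1.73 over the rostral-in-Cy5 arrays, so its size came from the second orientation. Gata1 (mean 0.53) and Nfe2 (mean 0.45), each measured in 2 pools, lay above 0. Of vessel genes, Acta2, smooth muscle actin, gave -0.27, -0.69 and -1.53 with 3 arrays above and 3 below 0, and Pecam1, an endothelial adhesion molecule, 0.21, 0.28 and 0.11. Of microglial genes, Tyrobp, an adaptor, gave 0.39, 0.17 and 0.61, but it was below 0 on the 3 rostral-in-Cy3 arrays (-0.50, -0.25 and -0.35), and Cd68, a lysosomal protein, gave -0.04, -0.95 and -0.81. The list of hypoxia and glycolysis genes had its median at 0.09 (8 of 20 above and 2 below in 3 of 3 pools), or -0.07 with arrays not centred, led by Pgm1. Immediate early and stress genes had a median of -0.06, with the metallothionein Mt1 at -0.48, -0.73 and -0.65. With rostral RNA in Cy3, then Cy5, these medians were -0.02 and 0.18 for hypoxia and -0.10 and 0.14 for immediate early genes. Their sides thus depended on the dye too. In each of these lists 0 members passed the adjusted threshold.

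Genes of ribosomes and of oxidative phosphorylation differed between the pools. Of 58 ribosomal protein genes 52 (89.7%) were above 0, against 49.9% of all features, with a median of 0.10 (-0.06 with arrays not centred). However, the pool medians were 0.16, -0.06 and 0.22, and 17 were above 0 with rostral RNA in Cy3 against 53 with rostral RNA in Cy5. Of 84 oxidative phosphorylation genes 66 (78.6%) were above 0 with a median of 0.12 (-0.05 with arrays not centred). Pool medians were 0.26, -0.05 and 0.18, and 42 were above 0 with rostral RNA in Cy3 against 67 with rostral RNA in Cy5. An unadjusted p under 0.05 (limma) was found for 0 of 58 ribosomal and 1 of 84 oxidative phosphorylation genes, against 6.71% of all features. Cox4i1, a subunit of cytochrome oxidase, gave 0.44, 0.43 and 0.39, above 0 on all 6 arrays. Pool 2 was the low pool for both lists. Olfactory and vomeronasal receptors, which the cortex is not known for, showed the dye most plainly: the median of 82 was 1.004 with rostral RNA in Cy3 and -0.75 with rostral RNA in Cy5, and 0.05 over both. Of these 82 receptors 12 had an unadjusted p under 0.05 (limma), a larger share than the 6.71% of all features, and 9 of them were higher rostrally. Only 1 of 38 complete ones had 1 sign on all 6 arrays (5.91% of all complete features).

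**Figure D4:**
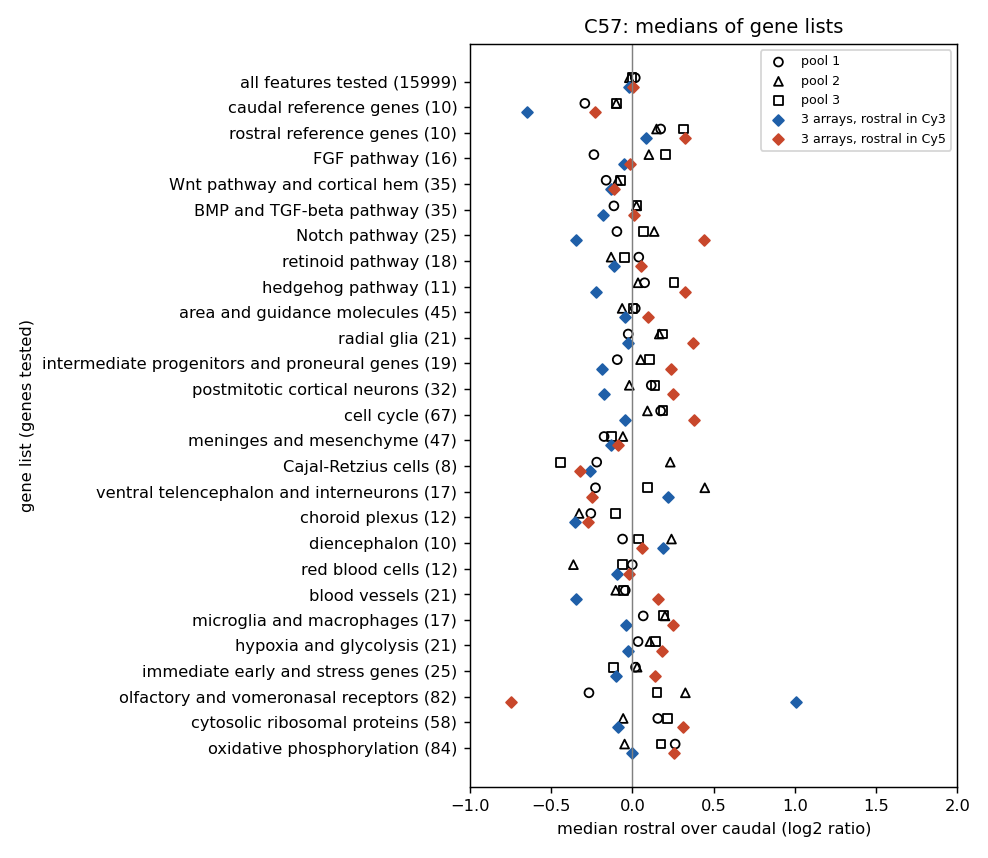
Median log2 ratio of rostral over caudal RNA (x axis) of each gene list (y axis, number of genes tested in brackets) in C57, with open black symbols for pools 1 to 3 and diamonds for the 3 arrays of each orientation (blue with rostral RNA in Cy3, red with rostral RNA in Cy5). Cell cycle medians are above 0 in 3 of 3 pools on centred arrays (the list's median is -0.0017 with arrays not centred), the olfactory receptors split by dye, and all features lie near 0.

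The largest ratios came from features measured in 2 pools, where arrays disagreed in size. Obp1a, an odorant binding protein, had the highest mean, 3.74 (n = 2), from arrays of 5.24 and 2.75 in pool 2 and 2.58 and 4.38 in pool 3. Nat1, an acetyltransferase, averaged 3.05 over arrays of 6.26, 0.90, 5.16 and -0.10, Nsun7, of the RNA methyltransferase family, 2.99 over arrays of 0.47, 4.27, 5.71 and 1.501, and Ccl8, a chemokine, 2.59. The lowest were Ndnf, a secreted neuronal protein also made by Cajal-Retzius cells, at -2.92 (arrays of -3.82, -2.005, -0.31 and -5.54), the chemokine Ccl20 and the lymphoid factor Spib at -2.75 each, and the membrane protein Stom at -2.51. In each of these except Obp1a at least 1 array lay within 1 of 0, so the mean rested on the others. Slfn4 (1.94 ± 0.51, SD, n = 3) and the epoxide hydrolase Ephx3 (-1.87 ± 0.41) were among the smallest p-values with 3 pools but had mixed signs over the arrays.

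Ratios in C57 were then set beside those in MF1, which were obtained on separate arrays, so a difference between strains cannot be told apart from one between these sets of arrays. With limma on both strains, 0 of 14418 features passed for C57 minus MF1 (smallest adjusted p = 0.532), and 879 (6.10%) had an unadjusted p under 0.05. Of 674 features with 1 sign on all 6 C57 arrays and 3 MF1 pools, 72.1% had an MF1 mean of the same sign, 281 of 358 of the higher and 205 of 316 of the lower ones, against 58.2% of all 10596 features complete in C57 with 3 MF1 pools. By MF1 pool these shares were 62.2%, 49.6% and 73.0% against 54.9%, 48.3% and 57.05%, so MF1 pool 2 was at the level of its background. No test was made of these shares.

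Among the 24 genes above, 8 of the 11 higher and 5 of the 8 lower genes with 3 MF1 pools had the C57 sign in 3 of 3 MF1 pools. The matching share over all features was not counted, so these counts only describe the 24 genes. Fgfbp3 (1.16, 0.92 and 1.04 in MF1), Sfrp1 (1.09, 1.12 and 1.10), Pantr1 (0.90, 0.70 and 0.81) and Tenm2 (-0.97, -0.60 and -0.62) had means that differed between the strains by less than the larger of the SDs of both strains. The C57 means were larger in size for Nr2f1 (-0.49, -0.57 and -0.89 in MF1), Notch2 (-0.26, -0.17 and -0.34), Slc38a3 (0.28, -0.01 and 0.06) and Scin (-0.48, -0.18 and 0.09). The MF1 mean of Scin, -0.19, lay on the other side of 0. The difference C57 minus MF1 was -0.97 for Nr2f1, and its limma adjusted p was 0.693. Hes5 (0.01, 0.06 and 0.19 in MF1), Dhrs3 (-0.05, 0.24 and -0.41) and Rdh10 (-0.02, 0.17 and 0.24) were also nearer 0 in MF1, and none of these differences passed. All of these genes were picked by small p in C57, and the C57 arrays spread wider. Values nearer 0 in MF1 can therefore come from the choice of genes alone, and no greater size in C57 is claimed. The transcript 4930417O22Rik, at -1.10 in C57, was at 2.08 and 2.85 in the 2 MF1 pools with a value, a difference of -3.56 (limma adjusted p = 0.532). Stra6l, related to the retinol-binding protein receptor, gave -2.10 and -2.44 in 2 C57 pools and 0.27, 0.03 and -0.19 in MF1, a difference of -2.30 (limma adjusted p = 0.532).

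**Figure D5:**
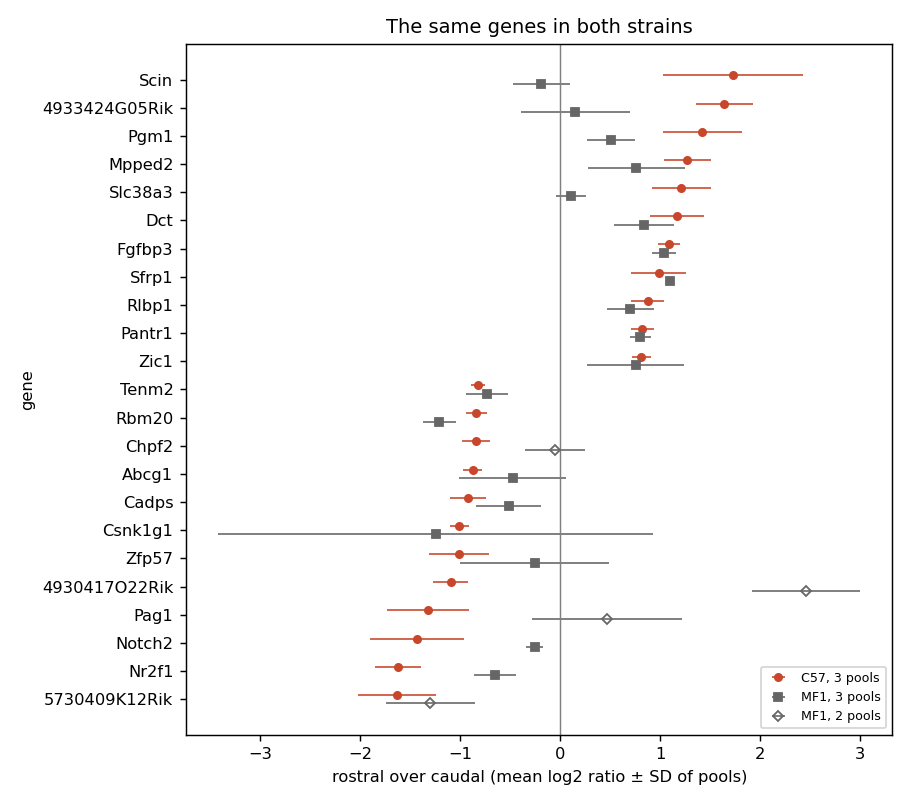
Mean log2 ratio of rostral over caudal RNA ± SD of pools (x axis) in C57 (red circles, 3 pools) and MF1 (grey squares, 3 pools; open diamonds, 2 pools) for the 23 of the 24 genes with at least 2 MF1 pools (y axis). Fgfbp3, Sfrp1, Rlbp1, Pantr1, Zic1 and Tenm2 have overlapping bars in both strains, and the means of 4930417O22Rik, Scin and Pag1 lie on opposite sides of 0.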

How the data were processed

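The authors' deposited series table holds, per array, the log2 ratio between its dyes: the scale was read from the values, which are signed, lie around 0 and stop at a ceiling of 16.61 (the log2 of 1e+05). Per the labels' protocols RNA was extracted with Trizol; the labels do not describe image analysis, background correction, normalization or the numerator (not given in the sources used here). From these values, ceiling values (270 on the C57 arrays) were dropped, each array was centred on its median, arrays with rostral RNA in Cy3 were multiplied by -1, and both arrays of a pool were averaged where both had a value. Probes of a gene were averaged (1037 genes with several). The platform annotation gave 1 symbol for 16864 probes, several for 139 (left unnamed) and none for 4995; 16184 matched the RefSeq table by Entrez ID and 0 symbols were replaced.

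Features with at least 2 pools entered a fit by lmFit and eBayes (limma 3.58.1 under R 4.3.3; mean of the C57 pools against 0, Benjamini-Hochberg, threshold 0.05); the fit was tested on simulated data. C57 minus MF1 used all 6 pools. An exact sign permutation over 3 pools cannot go below p = 0.25 (two-sided), so none is given. Genes to name were drawn from the 12 genes per side of smallest p with 1 sign on 6 arrays and 1 probe sign, 4 per side of largest mean, of smallest p and of smallest strain-difference p, all measured reference genes and up to 3 per side of each other list; genes of 2 lists count in both, and which list members are described was chosen with their values in view. The gene lists and members were chosen with earlier results of these data known, and lists are described, not tested. Alternatives were centring, ceiling, scaling, each dye orientation, completeness, each pool left out, shared spread, a fit of arrays, single probes and a robust prior. No genome was used here; promoter sequences and their coordinates are RefSeq's (GRCm38.p6), and probe coordinates are not given.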

Additional observations from a re-analysis of the deposited data

Results flagged for a closer look

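In 11 of the 182 genes that follow the naming rule and had at least 2 pools per strain (6.04%), all measured C57 pools lay on one side of 0 and all measured MF1 pools on the other, against 467 of all 14418 features tested (3.24%); the naming rule picks some genes by their strain difference or C57 sign, so these shares are not comparable as evidence. The difference C57 minus MF1 was tested with limma on both strains, and none of the 11 passed (adjusted p between 0.532 and 0.864). Among genes measured in 3 pools of each strain, Ppp1cc, a catalytic subunit of protein phosphatase 1, gave 0.03, 0.83 and 0.69 in C57 and -1.24, -1.28 and -1.72 in MF1, a difference of 1.93. Cux1, a transcription factor of upper-layer neurons, differed by 0.857 (0.59 ± 0.13 against -0.27 ± 0.19, SD, n = 3 each) and Lfng, the glycosyltransferase acting on Notch receptors, by -1.06 (-0.76 ± 0.80 against 0.31 ± 0.31). The ribosomal protein gene Rpl23 differed by -0.613 and the cytochrome oxidase subunit Cox8a by 0.536.

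The other six had fewer pools in a strain. The transcript 4930417O22Rik differed by -3.56 and Prr32 by -2.59, each with 3 C57 and 2 MF1 pools. Ebf1, a helix-loop-helix factor of Cajal-Retzius cells, differed by 2.43 with 2 pools in each strain. With 2 C57 pools, the centriole kinase Plk4 differed by -0.88, the collagen Col5a1 by 1.41 and the erythroid factor Nfe2 by 0.829.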

How the results depend on the processing

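The count of features past the adjusted threshold in C57 was 0 in every setting run, with a smallest adjusted p between 0.177 (shared spread over both strains) and 0.978 (without pool 3), and so was the count for C57 minus MF1 (between 0.102 and 0.9996). At an unadjusted p under 0.05 the 1073 features became 2489 when only the 3 rostral-in-Cy5 arrays entered and 2635 when only the 3 rostral-in-Cy3 arrays did, where a dye effect is not averaged out; without each pool in turn there were 663 to 1101, the lowest without pool 3. Features with 1 sign on all arrays numbered 1629 to 2373 (11.8% to 17.0% of complete features) without each pool, where 4 arrays are left in place of 6. The naming rule picks many genes by small p or by 1 sign on all 6 arrays, which leaves them little room to turn. The counts that follow are therefore no measure of robustness, and none were made over all features. Of 187 genes following the naming rule 78 had an unadjusted p under 0.05. Of these, 72 kept their side in all settings run for them. Of the other 6, Ifi44l turned to -0.81, Smad6 to 0.0070, Rdh10 to 0.0657 and Olfr683 to -1.62 on the rostral-in-Cy5 arrays alone, and Olfr48 turned to -0.98 and Gadd45b to -0.17 on the rostral-in-Cy3 arrays alone; the cause was not tested. Of 260 list medians under alternatives 76 moved by over 1 SD of the pool medians.

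Pools of both strains carry the same numbers, and deviations of same-numbered pools had Spearman correlations of -0.22, 0.12 and 0.02. Pools with different numbers were not compared in this way, so these values cannot decide whether the numbers pair the pools. With the pool number as a replicate block, C57 minus MF1 passed 0 features, with 180 higher and 259 lower at an unadjusted p under 0.05 against 359 and 520 without it, and this fit used features with 3 pools per strain. Signal over background is unknown, so dim and bright probes count alike.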

Other observations

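A few more genes had 1 sign on all 6 C57 arrays and were not described above, although each belongs to one of the lists. Dlk1, a membrane protein related to Notch ligands, gave 0.48, 3.31 and 1.01 in pools 1 to 3, so pool 2 carried most of its mean of 1.60. Boc, a co-receptor for hedgehog ligands, gave 0.50, 0.20 and 0.13, and Insm1, a zinc finger factor of newborn neurons and basal progenitors, 0.48, 0.31 and 0.16. Icam1, an adhesion molecule of endothelium, lay below 0 at -0.90, -2.73 and -0.51. Pou3f2, a transcription factor of cortical progenitors, averaged 0.31, but its probes disagreed, at -0.02 and 0.64. With limma, none of these passed the adjusted threshold.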
